A study of Mus musculus with 6 samples.

Results

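The genes described here are 10 regulators and markers of cartilage and bone, taken by name from a table of 55471 mouse genes: the transcription factor genes Sox5, Sox6, Sox9, Runx1, Runx2, Runx3 and Sp7, and the marker genes Acan, Cytl1 and Alpl. All 10 symbols matched an Ensembl identifier. Collagens were not among them. The measurements are RNA-seq counts from 10T1/2, a mouse line of embryonic fibroblasts. The WT group held 3 libraries of the unedited line, and the other 3 libraries, labelled Ranbp2 KO, came from 10T1/2 cells in which Ranbp2 had been targeted with CRISPR/Cas9. Both groups were untreated, and polyA RNA was sequenced from each. The submitters call the libraries biological replicates and state that loss of Ranbp2 was assessed by qPCR, western blot and staining. They do not say how cultures were separated or whether the edited cells were a single clone, so the tests here measure spread among the libraries only. A difference that arose in the edited cells apart from the edit cannot be told apart from genotype.

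Ranbp2 itself, the gene of a protein on the cytoplasmic face of the nuclear pore, was read first as a check of the labels. The Ranbp2 KO libraries gave 294.0, 288.9 and 292.9 CPM (counts scaled by library size), the WT libraries 219.8, 250.1 and 249.0 CPM. The transcript was higher, not lower, under the KO label, by 0.28 on the log2 scale (SE 0.07, adjusted p = 0.0120, edgeR). Counts summed over a gene include transcripts that carry an edit, so the check could neither bear out nor refute the label. These libraries are therefore called KO-labelled, and every difference below is KO-labelled minus WT. Total expected counts lay between 32072817 and 46321967 per library. All 14 mesenchymal markers were measured, with a summed level of 28769 to 35798 CPM in KO-labelled and 22601 to 25944 CPM in WT libraries. At an adjusted p below 0.05 (edgeR), 6 were higher, 4 lower and 4 not called. Their median log2 difference was 0.02, so the higher sum does not stand for the markers as a set. Fn1, fibronectin, was the highest of them, at 14521 ± 2738 (SD, n = 3) and 5864 ± 269 CPM. Thy1, a surface marker of fibroblasts that was picked out after its values were seen, was at 0.313 to 0.745 CPM in KO-labelled libraries. Its WT values were 56.9 to 61.2 CPM.

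As background, Sox9 is the transcription factor that commits mesenchymal cells to cartilage, and Sox5 and Sox6, which belong to the SoxD group and lack an activation domain of their own, bind beside it and strengthen its action on cartilage matrix genes. Runx2, with its partner Cbfb, directs cells towards bone and also drives the late maturation of cartilage, and Sp7, osterix, acts after Runx2 in the osteoblast. Runx1 is best known from blood formation and Runx3 from T cells, sensory neurons and maturing cartilage. Acan encodes aggrecan, the large proteoglycan of cartilage, Cytl1 a small secreted protein of chondrocytes, and Alpl the phosphatase that frees phosphate for mineral. The line 10T1/2 is widely used because it can be driven to cartilage, bone, fat or muscle.

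In the KO-labelled libraries Sox5, Sox6 and Cytl1 rose, while Sox9 and the Runx genes Runx1 and Runx2 fell. Of the 10 genes, 7 passed the filter on low counts and 3 (Sp7, Acan and Alpl) did not. Among the 7 tested, 3 were called higher (Sox5, Sox6, Cytl1), 3 lower (Sox9, Runx1, Runx2) and 1 (Runx3) was not called, at an adjusted p below 0.05 in edgeR's quasi-likelihood test. Over all 15454 genes tested, 38.9% were called, 17.6% higher and 21.3% lower, so a call by itself was common in this comparison. The 10 genes were chosen with earlier results of these data known. Their share and ranks beside all genes are therefore a description and no test. The 6 called members were also those whose groups did not overlap, which held for 51.4% of all genes tested. The sizes set the members apart from each other: the increases of Cytl1 and Sox6 were 31.0-fold or more, and the 3 decreases were 1.66-fold or less. Sox5 rose 20.8-fold, but it passed the filter only through the KO-labelled group, with 5, 1 and 3 counts in WT libraries. Among all genes tested, Cytl1 ranked 4, Sox6 17 and Sox5 30 by the size of the increase, the rank of Sox5 under the same limit. In these bulk libraries a change in the number of cells that express a gene and a change in RNA per cell cannot be told apart.

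**Figure D1:**
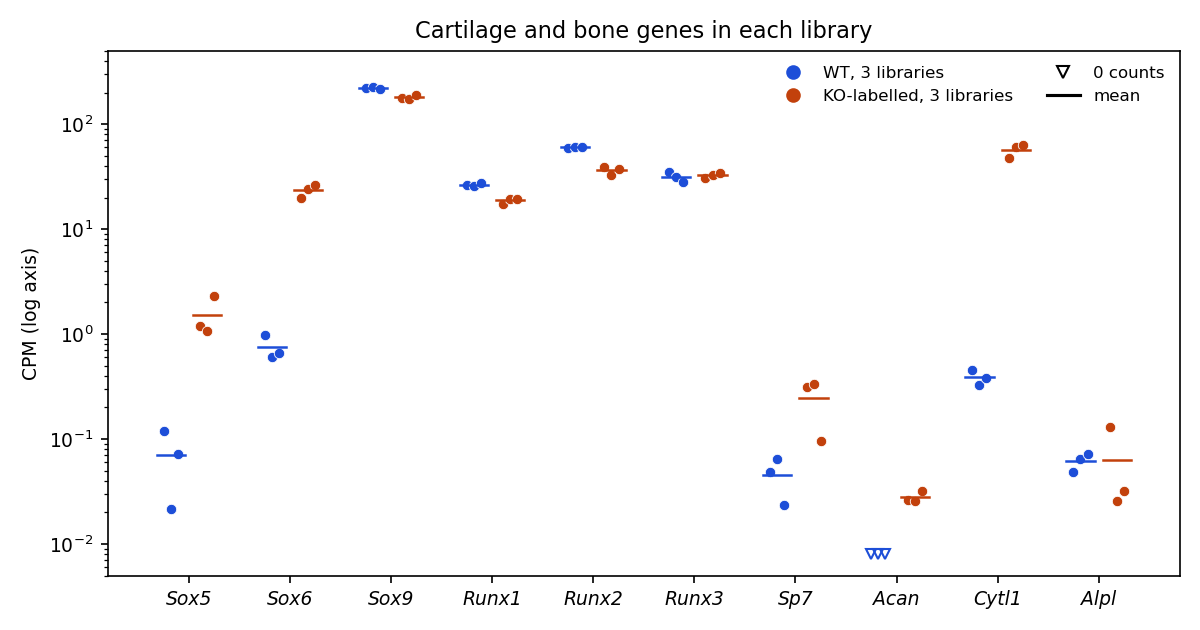
CPM of the 10 genes in each library on a log axis, with 3 WT libraries (blue) and 3 KO-labelled libraries (orange) per gene, horizontal lines for the group means and open triangles for libraries with 0 counts. Cytl1, Sox6 and Sox5 stand apart between the groups, Sox9, Runx1 and Runx2 lie slightly lower in the KO-labelled libraries, and Acan, Alpl and Sp7 lie at or below 0.334 CPM in every library.

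Cytl1 (ENSMUSG00000062329, chromosome 5, 37735519 to 37739820, plus strand, GRCm38) changed most. Its level was 48.1, 61.0 and 62.6 CPM in KO-labelled cells and 0.458, 0.326 and 0.380 CPM in WT cells. The WT values rest on 19, 15 and 16 counts and the KO-labelled values on 1841, 2377 and 1960, so the gene was detected in all 6 libraries and the groups were far apart. The log2 difference was 7.20 (SE 0.17, 95% interval 6.83 to 7.57, adjusted p = 4.84e-09, edgeR), or 147-fold. Per kilobase of merged exon, Cytl1 went from 0.368 ± 0.0626 to 54.2 ± 7.56 CPM per kb (SD, n = 3). In the WT libraries it ranked below Sox9 and all 3 Runx genes on this scale. In the KO-labelled libraries it stood beside Sox9, at 43.7 ± 2.11 CPM per kb, and the values of these genes overlapped. Because it is the member with the largest change, its promoter window is shown, 250 bases before to 50 after the annotated start, from RefSeq's GRCm38.p6 annotation (chr5:37735269-37735568, plus strand). Capitals would mark the core letters bound by RUNX proteins (ACCACA) or SOX proteins (ACAAAG or ACAATG) on either strand, and this window holds neither.

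Cytl1: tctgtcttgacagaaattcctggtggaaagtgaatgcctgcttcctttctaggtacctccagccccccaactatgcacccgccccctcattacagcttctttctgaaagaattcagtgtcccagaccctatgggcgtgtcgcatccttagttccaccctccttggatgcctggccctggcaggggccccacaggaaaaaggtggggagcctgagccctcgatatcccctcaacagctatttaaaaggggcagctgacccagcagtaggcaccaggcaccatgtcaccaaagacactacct

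No gene around Cytl1 showed an increase of similar size. Of 8 genes tested that start within 500 kb, 1 was higher and 1 lower. Msx1, a homeobox gene of limb and skull development 89.1 kb away, rose by 0.67 (SE 0.17, adjusted p = 0.0117), and Nsg1, a neuronal endosome protein gene 424 kb away, fell from between 35.2 and 37.7 CPM to between 5.64 and 6.55 CPM (log2 difference -2.54, SE 0.08, adjusted p = 3.91e-08, edgeR). The other genes of this window were not called, and chromosome 5 as a whole had a median of 0.05.

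Sox6 (ENSMUSG00000051910, chromosome 7, 115470872 to 116038796, minus strand) was at 19.6, 24.4 and 26.2 CPM in KO-labelled libraries, and the WT libraries gave 0.988, 0.609 and 0.666 CPM. The lowest KO-labelled value lay far above the highest WT value. The log2 difference was 4.96 (SE 0.19, 95% interval 4.54 to 5.37, adjusted p = 8.24e-08, edgeR), or 31.0-fold. Sox5 (ENSMUSG00000041540, chromosome 6, 143828425 to 144781977, minus strand) moved the same way at a much lower level. It had 46, 42 and 72 counts, or 1.201, 1.08 and 2.30 CPM, under the KO label. In WT libraries it had 5, 1 and 3 counts, or 0.121, 0.0218 and 0.0713 CPM. KO-labelled library 3 was the highest, and the groups did not overlap. The log2 difference of Sox5 was 4.38 (SE 0.52, 95% interval 3.20 to 5.55, adjusted p = 1.57e-04, edgeR). Sox5 passed the filter on low counts only through the KO-labelled group, so a difference in this direction was built into its being tested.

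Of the SoxD genes, Sox6 carries the increase, and its most upstream annotated start is shown for that reason (chr7:116038695-116038994, minus strand, RefSeq GRCm38.p6). The capitals mark 1 match to the SOX core letters, ACAAAG. RefSeq lists 6 start windows for Sox6, of which 5 hold SOX core letters and 2 hold RUNX core letters; in the fifth window the letters of both share bases. Counts per gene do not tell which start was used.

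Sox6: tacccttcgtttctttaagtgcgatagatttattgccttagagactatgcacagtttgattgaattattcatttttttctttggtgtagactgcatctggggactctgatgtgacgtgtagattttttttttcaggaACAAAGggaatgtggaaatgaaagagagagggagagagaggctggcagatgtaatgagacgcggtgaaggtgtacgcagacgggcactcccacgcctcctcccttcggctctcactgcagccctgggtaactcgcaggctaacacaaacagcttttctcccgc

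On the opposite side of this start lies 1110004F10Rik, a gene that begins 0.601 kb away and was picked out after its value was seen. It stood at 63.5 ± 1.59 CPM in KO-labelled and 60.9 ± 7.40 CPM in WT libraries, a log2 difference of 0.06 (95% interval -0.14 to 0.26) that was not called. Of the 9 genes tested within 500 kb of Sox6, 0 were called higher and 1 lower, namely Plekha7, a junction protein gene, which fell by 1.52 (SE 0.21, adjusted p = 3.53e-04). Around Sox5, 2 of 6 genes were called higher, Etfrf1, of the mitochondrial electron transfer flavoprotein system, by 0.73 (SE 0.13) and Bcat1, a branched-chain amino acid transaminase, by 0.61 (SE 0.07). Chromosome 6 leaned upwards, with 223 of 783 genes tested higher, 99 lower and a median of 0.17.

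**Figure D2:**
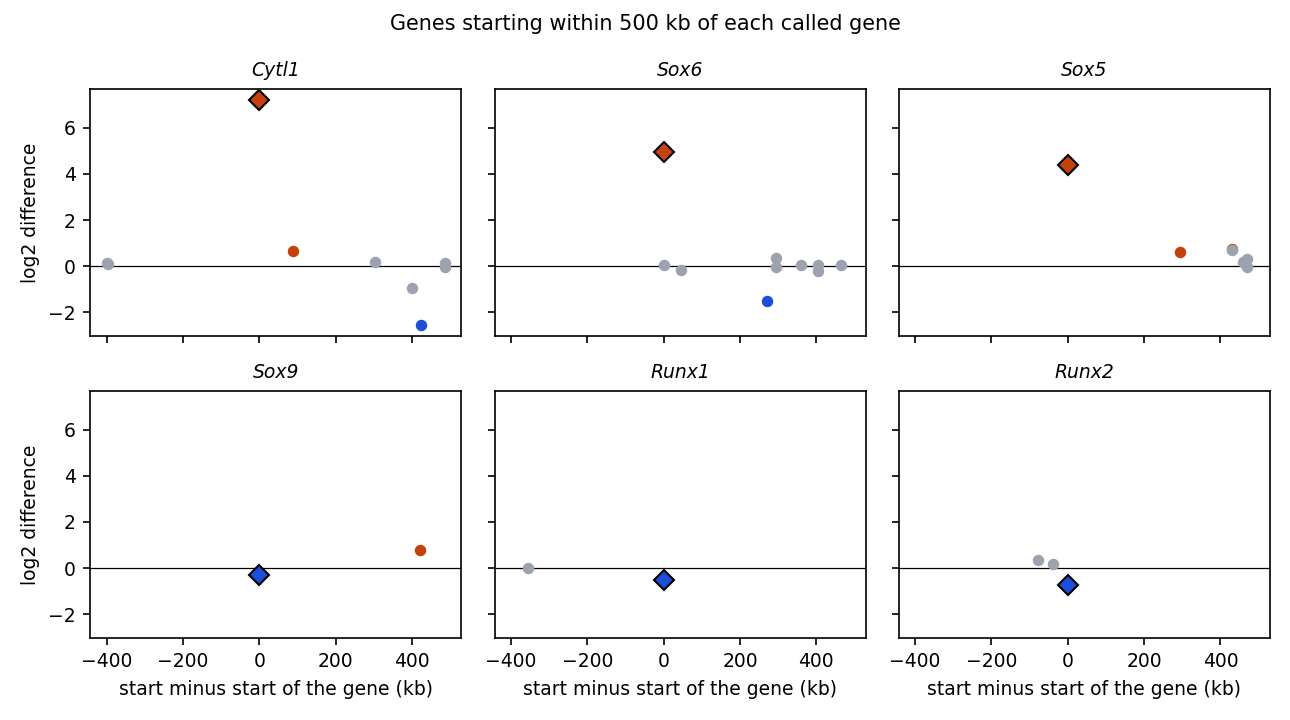
Log2 differences of the genes that start within 500 kb of the 6 called genes (diamonds), against distance between starts in kb, with higher calls in orange, lower calls in blue and genes not called in grey. All neighbours lie below 1 on the log2 scale, far under the diamonds of Cytl1, Sox6 and Sox5. The gene 0.601 kb from the Sox6 start lies at 0.06. In the downward direction, Nsg1 near Cytl1 lies at -2.54 and Plekha7 near Sox6 at -1.52, beyond the diamonds of Sox9, Runx1 and Runx2.

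The third SoxD gene, Sox13, went the opposite way, so the make-up of the group differed between the cells. Sox13 had 0 counts in all 3 KO-labelled libraries and stood at 3.59, 2.94 and 2.23 CPM in the WT libraries. Against a floor of 3 counts over the KO-labelled group, that is at least 106-fold lower (adjusted p = 1.31e-05, edgeR), and it passed the filter only through the WT group. Per kilobase of exon, Sox13 made up 92.4% ± 1.54 of the summed SoxD level in WT libraries and 0% in KO-labelled libraries. Sox6 made up 6.97% ± 1.16 in WT and 93.8% ± 1.98 in KO-labelled libraries, and Sox5 0.669% ± 0.399 and 6.20% ± 1.98 (SD, n = 3). The summed SoxD level was 1.41, 1.72 and 1.93 CPM per kb in KO-labelled and 0.908, 0.724 and 0.568 CPM per kb in WT libraries, 2.30 times as high. The groups did not overlap in any of these shares or in the sum. The exact two-sided permutation test gave p = 0.1 for each, the smallest that 3 against 3 libraries allow (0.113 for the shares after Benjamini-Hochberg adjustment over 9 shares).

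Sox9 (ENSMUSG00000000567, chromosome 11, 112782224 to 112787760, plus strand) was the highest of the 7 transcription factor genes per kilobase in both groups. Its values were 178, 173 and 190.2 CPM under the KO label and 223, 224 and 217 CPM in WT libraries. The highest KO-labelled value was below the lowest WT value, by a margin that was small as a ratio compared with the SoxD genes. The log2 difference was -0.30 (SE 0.07, 95% interval -0.44 to -0.15, adjusted p = 0.00589, edgeR), a decrease of 18.5% that was smaller than the change of many genes tested (percentile 52.6 of absolute differences). Chromosome 11 leaned the same way, with 119 of 1115 genes tested higher, 279 lower and a median of -0.07, and relative to that median the Sox9 difference was -0.22. The only gene tested within 500 kb of Sox9, the long noncoding RNA 2610035D17Rik, rose by 0.78 (SE 0.11, adjusted p = 4.61e-04). The relatives of Sox9 in the SoxE group were low, and Sox9 made up 99.6% ± 0.0893 of the SoxE level in KO-labelled and 99.9% ± 0.0449 in WT libraries. Sox8, an early partner of Sox9, was at 0.525 ± 0.153 against 0.200 ± 0.0916 CPM and was called higher (adjusted p = 0.0348, edgeR), having passed the filter only through the KO-labelled group. Sox10, which drives glial and pigment cells, had at most 0.0261 CPM in any library.

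**Figure D3:**
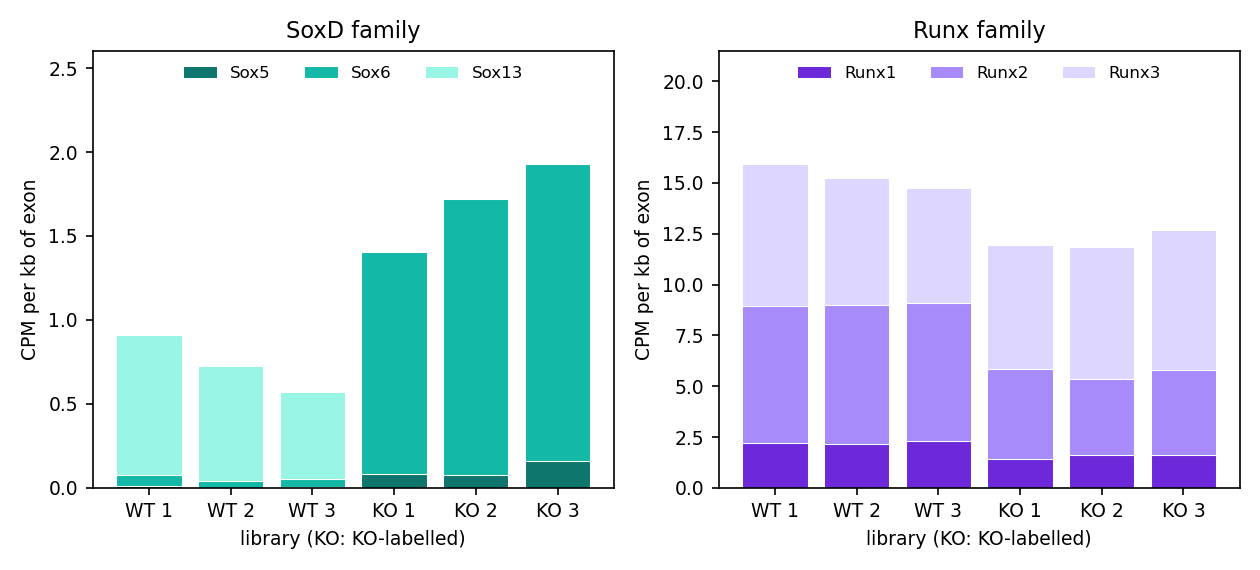
Stacked levels of the SoxD genes (left) and Runx genes (right) in each library, in CPM per kb of merged exon, with WT libraries first and KO-labelled libraries after them. Sox13 makes up most of the SoxD level in WT libraries and Sox6 most of it in KO-labelled libraries, while the Runx bars shrink mainly in the Runx2 segment.

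Among the Runx genes, Runx2 fell most, Runx1 fell less and Runx3 was not called. Runx2 (ENSMUSG00000039153, chromosome 17, 44495987 to 44814797, minus strand) was at 39.1, 32.8 and 37.0 CPM in KO-labelled libraries, against 59.7, 60.6 and 60.1 CPM in WT libraries. The WT values lay within 1 CPM of each other, well above the KO-labelled ones. The log2 difference was -0.73 (SE 0.08, 95% interval -0.91 to -0.55, adjusted p = 8.65e-05, edgeR), a decrease of 39.6%. Chromosome 17 leaned the other way, with 299 of 783 genes tested higher, 74 lower and a median of 0.27, so relative to its chromosome Runx2 stood at -1.002. Supt3, a transcription coactivator gene that overlaps the Runx2 locus on the other strand, was not called, at 17.3 ± 0.901 and 15.1 ± 1.97 CPM.

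Runx1 (ENSMUSG00000022952, chromosome 16, 92601466 to 92826149, minus strand) was at 17.2, 19.4 and 19.5 CPM in KO-labelled and 26.3, 25.6 and 27.7 CPM in WT libraries. The groups did not overlap, and the log2 difference was -0.50 (SE 0.08, 95% interval -0.68 to -0.33, adjusted p = 7.05e-04, edgeR). Runx3 (ENSMUSG00000070691, chromosome 4, 135120652 to 135177990, plus strand) was at 30.4, 32.6 and 34.4 CPM in KO-labelled and 34.9, 31.3 and 28.1 CPM in WT libraries. Its groups overlapped, and the 95% interval of its log2 difference ran from -0.16 to 0.25 around 0.04 (adjusted p = 0.732, edgeR). Markers of blood cells, in which Runx1 and Runx3 are prominent, were low. Of 8, 2 passed the filter and 0 were called by edgeR, Adgre1 was at 0 counts in all libraries, and Cd68 was the highest, at 1.54 ± 0.412 and 1.59 ± 0.294 CPM. They summed to 2.14 to 2.98 CPM in KO-labelled and 1.85 to 2.69 CPM in WT libraries.

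Per kilobase of exon, the summed Runx level was 11.9, 11.8 and 12.7 CPM per kb in KO-labelled and 15.9, 15.3 and 14.7 CPM per kb in WT libraries. The share of Runx2 in that sum was 44.5% ± 1.90 in WT and 33.8% ± 2.94 in KO-labelled libraries, and that of Runx3 41.0% ± 2.81 and 53.4% ± 2.16 (SD, n = 3). Runx2 and Runx3 stood level in WT libraries, at 6.81 ± 0.0495 and 6.29 ± 0.675 CPM per kb with overlapping values, whereas in KO-labelled libraries Runx3, at 6.49 ± 0.405 CPM per kb, lay above Runx2, at 4.11 ± 0.361, without overlap. Runx1 was the lowest of the family in both groups. The exact permutation p was again 0.1 for each share and for the sum. Cbfb, the shared partner that lets Runx proteins bind DNA firmly, rose by 0.33 (SE 0.10, adjusted p = 0.0205, edgeR) from 104 ± 13.6 to 131 ± 6.04 CPM. It was picked out after its values were seen.

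The upstream starts of the Runx genes are shown together because they share a stretch of RUNX letters while the genes' differences were not alike. The windows are those of Runx1 (chr16:92826025-92826324, minus strand), Runx2 (chr17:44814578-44814877, minus strand) and Runx3 (chr4:135120395-135120694, plus strand), from RefSeq GRCm38.p6, with ACCACA in capitals on either strand.

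Runx1: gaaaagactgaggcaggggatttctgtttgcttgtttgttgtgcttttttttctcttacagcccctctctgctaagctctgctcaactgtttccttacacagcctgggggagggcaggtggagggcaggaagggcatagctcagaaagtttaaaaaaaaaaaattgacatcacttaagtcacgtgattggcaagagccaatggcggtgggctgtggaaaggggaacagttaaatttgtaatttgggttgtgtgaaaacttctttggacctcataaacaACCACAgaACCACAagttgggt

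Runx2: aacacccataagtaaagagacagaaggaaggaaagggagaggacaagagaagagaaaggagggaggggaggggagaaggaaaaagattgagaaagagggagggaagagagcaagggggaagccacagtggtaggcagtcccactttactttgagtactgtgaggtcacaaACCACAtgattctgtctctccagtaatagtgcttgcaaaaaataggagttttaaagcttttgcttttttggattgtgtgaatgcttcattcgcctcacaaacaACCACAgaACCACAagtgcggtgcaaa

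Runx3: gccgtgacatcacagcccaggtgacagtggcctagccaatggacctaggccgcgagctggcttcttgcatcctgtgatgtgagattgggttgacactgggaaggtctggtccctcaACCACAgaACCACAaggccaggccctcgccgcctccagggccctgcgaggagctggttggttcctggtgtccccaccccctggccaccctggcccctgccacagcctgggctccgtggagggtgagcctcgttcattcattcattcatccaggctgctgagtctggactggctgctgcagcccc

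All 3 windows share the 18-base stretch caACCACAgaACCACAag, in which ACCACA occurs as a tandem pair. Among 32817 distinct promoter windows of the same length, this stretch occurred in 4, those of Runx1, Runx2, Runx3 and Gm16225, and ACCACA pairs at this spacing occurred in 7 windows, or 0.0213%. Single RUNX core letters were common, in 16.8% of all windows, as were SOX core letters, in 28.6%, and the GC box letters CCGCCC, in 35.6%. Of 16 windows listed for 8 of the 10 genes, 5 held RUNX core letters, 8 SOX core letters and 5 the GC box. The stretch was itself taken from the 3 Runx windows, so their matches were fixed in advance. It lies after the annotated start in Runx1 and Runx2 and before it in Runx3. The stretch is a description of the sequence: Runx1 and Runx2 fell and Runx3 was not called. The start in use is not known from counts per gene.

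**Figure D4:**
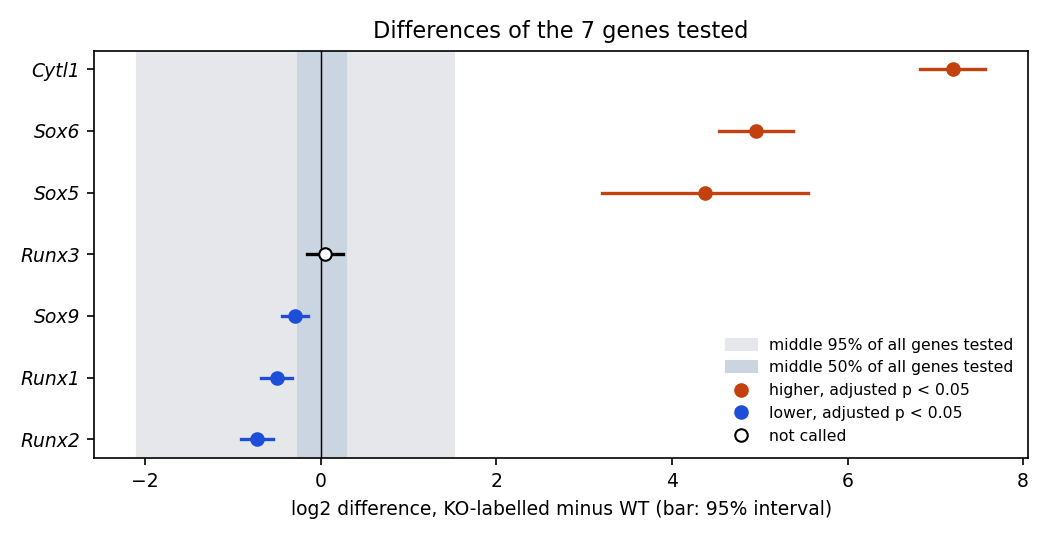
Log2 differences, KO-labelled minus WT, of the 7 genes tested, with 95% intervals as bars and the range of the middle 50% and 95% of all genes tested shaded. Cytl1, Sox6 and Sox5 lie far to the right of the shaded ranges, Runx1 and Runx2 lie left of the middle 50% but inside the middle 95%, and the interval of Runx3 spans 0.

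Sp7 and Alpl were barely detected in both groups, and Acan was barely detected in KO-labelled and not detected in WT libraries. Sp7 (ENSMUSG00000060284, chromosome 15, 102356606 to 102367182, minus strand) had 12, 13 and 3 counts in the KO-labelled libraries and 2, 3 and 1 in the WT libraries. That is a ratio of 5.57 with a 95% interval of 2.26 to 16.4 that covers counting error only, and KO-labelled library 3 was close to the WT libraries. Without the filter on low counts, Sp7 was called higher (log2 difference 2.34, SE 0.81, adjusted p = 0.0211 over 30473 genes, edgeR), at a level that never passed 0.334 CPM. With 1 library left out, Sp7 passed the filter in 4 of 6 fits, each time only through the KO-labelled group. A difference in this direction was thus built into its being tested there. Sp7 was called without KO-labelled library 3 (adjusted p = 0.00934) and without WT library 2 (adjusted p = 0.0456, edgeR). It was not called without WT library 1 (adjusted p = 0.0516) or WT library 3 (adjusted p = 0.0598, edgeR). Acan (ENSMUSG00000030607, chromosome 7, 79053483 to 79115099, plus strand) had 1 count in each KO-labelled library and 0 in each WT library, so no difference could be read at this depth. Alpl (ENSMUSG00000028766, chromosome 4, 137741733 to 137796384, minus strand) had 5, 1 and 1 counts against 2, 3 and 3, a ratio of 1.04 (95% interval 0.322 to 3.29). Without the filter neither Acan (adjusted p = 0.326) nor Alpl (adjusted p = 0.995) was called by edgeR.

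Ordered by level per kilobase, the KO-labelled libraries ran from Cytl1 and Sox9 through Runx3 and Runx2 to Sox6 and Runx1, then Sox5, Sp7, Alpl and Acan. In that order, neighbouring genes overlapped for Cytl1 and Sox9, for Sox6 and Runx1, for Sox5 and Sp7, and for Sp7 and Alpl. The WT libraries ran from Sox9 through Runx2, Runx3 and Runx1 to Cytl1 and Sox6, then Alpl, Sp7, Sox5 and Acan, with overlap between Runx2 and Runx3, between Alpl and Sp7, and between Sp7 and Sox5. Sox6 overlapped Runx1 in KO-labelled libraries, 1.58 ± 0.230 against 1.56 ± 0.108 CPM per kb, and lay far below it in WT libraries, 0.0509 ± 0.0138 against 2.21 ± 0.0880 CPM per kb.

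Genes of cartilage matrix that are not collagens were mostly higher as well where they could be tested, from low levels. Of 19 listed, 11 passed the filter, 8 of them higher, 0 lower and 3 not called. Over all genes tested, 17.6% were called higher and 21.3% lower, the background for this list and those below. The lists were chosen with earlier results of these data known, so their counts and medians beside that background are a description and no test. The median log2 difference was 2.09 beside 0.01 for all genes tested. Of the 11, 2 (Hapln1 and Epyc) passed only through the KO-labelled group, so an increase was built into their being tested. The median of 2.09 is Epyc's own value, and the next value below it is 0.79, that of S100a1. S100b, a calcium-binding protein of chondrocytes and glia, rose from between 4.75 and 5.42 CPM to between 30.8 and 39.1 CPM. Matn3, a matrilin that bridges cartilage fibrils, rose from 1.72 ± 0.181 to 8.88 ± 1.27 CPM, and Cnmd, chondromodulin, from 0.964 ± 0.233 to 7.31 ± 1.44 CPM. Hapln1, the link protein that ties aggrecan to hyaluronan, rose from 0.0463 ± 0.0237 to 1.32 ± 0.167 CPM (adjusted p = 1.55e-05, edgeR) and was one of those that passed only through the KO-labelled group. Matn4 was not called, at 6.48 ± 1.55 and 5.57 ± 1.43 CPM. Matn1, Ucma, Snorc, Chad, Cilp, Mia, Scrg1 and Vit did not pass the filter. Of these, Matn1, Scrg1 and Vit had counts only in WT libraries, and Ucma, Snorc and Cilp only in KO-labelled libraries. Of 12 markers of mature chondrocytes, several of them in this list or among the collagens, 8 were tested, 7 higher and 0 lower. Among the tested ones, Hapln1, Epyc and Col9a2 passed the filter only through the KO-labelled group, which favoured that direction in advance. Of the 12, 5 stayed below 1 CPM in every library. The markers of glial and pigment cells, which also use S100b or SoxE factors, numbered 8, of which 5 passed the filter, 1 was higher (Mitf, 3.50 ± 0.166 to 6.78 ± 1.26 CPM), 0 were lower and Foxd3 was at 0 counts. They summed to 9.58 to 12.1 CPM in KO-labelled and 5.57 to 6.92 CPM in WT libraries, and their part in these differences was not tested.

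Of 7 cartilage collagen genes, 5 were higher and 0 lower, with Col11a1 at 511 ± 58.6 against 130.1 ± 2.66 CPM. Col9a1, at 29.5 ± 0.391 against 0.307 ± 0.122 CPM, and Col9a2, which was not called, passed the filter only through the KO-labelled group. Col2a1, the main collagen of cartilage, was abundant in both groups, at 986 ± 58.3 in KO-labelled and 765 ± 102 CPM in WT libraries (adjusted p = 0.0220, edgeR), whereas Acan had at most 1 count per library.

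Of 20 listed genes that make and sulfate the chains carried by aggrecan, 19 were tested, 5 higher, 6 lower and 8 not called, with a median of -0.07. The rule for named genes picked 4 that rose: Csgalnact1, which starts chondroitin chains, by 0.81 (SE 0.07), Papss2, which makes the sulfate donor, by 0.72 (SE 0.07), Slc26a2, the sulfate transporter, by 0.74 (SE 0.08), and Chst3, a sulfotransferase, by 1.29 (SE 0.16), with adjusted p from 1.51e-05 to 2.25e-04 (edgeR). Xylt1, which adds the first sugar of the chains and was picked out after its values were seen, showed the largest difference of the list and went the other way. It fell from 0.709 ± 0.256 to 0.107 ± 0.0452 CPM (log2 difference -2.66, adjusted p = 0.00137, edgeR) and passed the filter only through the WT group. Papss1 was not called, at 89.5 to 105.4 CPM in KO-labelled and 83.1 to 91.2 CPM in WT libraries.

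Other regulators of cartilage formation were mixed. Of 22 listed, 17 were tested, 6 higher and 9 lower, with a median of -0.26. Beside Sox13, the genes with the smallest adjusted p were Nfatc1, a calcineurin-dependent factor, which rose from 23.3 ± 2.25 to 48.6 ± 1.07 CPM, Arid5a, a Sox9 coactivator, which fell from 12.0 ± 1.44 to 5.20 ± 0.135 CPM, and Scx, scleraxis, a factor of tendon progenitors, which fell from 5.18 ± 0.524 to 1.84 ± 0.0754 CPM. Hdac4, which restrains Runx2 in cartilage, was not called, at 29.0 ± 3.86 and 27.9 ± 2.78 CPM. Of 13 genes of growth plate signalling, 7 were tested, 1 higher and 4 lower, with a median of -0.68. That median is the value of Grem1, and it depends on counting Nog among the genes below it. One of the lower genes, Nog, a BMP antagonist with 0 counts in KO-labelled and 54 in WT libraries, passed the filter only through the WT group and was at least 15.1-fold lower against a floor of 3 counts over the group. It was picked out after its values were seen. Fgfr3, a receptor that slows cartilage growth, rose from 5.06 ± 0.968 to 19.7 ± 1.14 CPM. Pth1r, the receptor for parathyroid hormone and its related peptide, fell from 1.86 ± 0.257 to 0.382 ± 0.0670 CPM, Grem1, a BMP antagonist, from 90.0 ± 7.83 to 56.2 ± 2.61 CPM, and Fgf18 from 2.04 ± 0.101 to 0.901 ± 0.443 CPM. Npr2 was not called, at 105.8 ± 8.81 and 93.8 ± 9.28 CPM.

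Of 25 listed regulators of the osteoblast, 23 were tested, 6 higher, 12 lower and 5 not called, with a median of -0.40. Over all genes tested, 17.6% were higher and 21.3% lower. The called genes that the rule for named genes picked all fell, whereas Cbfb and Msx1, described above, rose. Hey1, a Notch target that restrains Runx2, fell from 5.09 ± 0.375 to 1.23 ± 0.0695 CPM, and Msx2, a homeobox gene of the skull, from 3.15 ± 0.331 to 0.765 ± 0.235 CPM. Smad1, which carries BMP signals, fell by 0.72 (SE 0.07) and Esrra by 0.88 (SE 0.10) on the log2 scale, and Tle2, a corepressor of Runx proteins, was not called, at 19.4 ± 6.92 and 29.3 ± 6.61 CPM.

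Matrix and surface genes of the bone lineage split. Of 24 listed, 13 were tested, 4 higher and 5 lower, with a median of -0.51. Spp1, osteopontin, rose to 236 ± 18.1 from 68.9 ± 4.07 CPM. Bmp4, a growth factor that induces bone, fell from 419 ± 10.2 to 186 ± 10.1 CPM, Pdpn, a mucin-like protein of early osteocytes, from 165 ± 11.8 to 75.1 ± 1.23 CPM, and Smoc2 from 103 ± 3.24 to 49.6 ± 3.02 CPM. Sparc, osteonectin, was not called, at 2458 ± 73.7 and 2559 ± 60.5 CPM. Of 9 markers of mature osteoblasts and osteocytes, 8 stayed below 1 CPM in every library and Ostn was at 0 counts. The highest, Phex, which regulates phosphate, was not called, at 0.931 ± 0.0856 and 1.34 ± 0.303 CPM. These markers summed to 1.28 to 1.59 CPM in KO-labelled and 1.59 to 2.62 CPM in WT libraries.

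Of 15 listed genes that supply or restrain mineral, 9 were tested, 1 higher, 5 lower and 3 not called, with a median of -0.37. Enpp1, which makes the mineral inhibitor pyrophosphate, fell from 12.6 ± 0.520 to 5.64 ± 0.540 CPM, and Ank, which exports it, from 143.7 ± 3.50 to 107 ± 4.89 CPM. Slc20a2, a phosphate transporter, fell by 0.38 (SE 0.06) on the log2 scale. Anxa5, an annexin of matrix vesicles, was the gene that rose, from 465 ± 37.6 to 645 ± 42.7 CPM, and Anxa6 was not called, at 271 ± 11.3 and 302.1 ± 12.0 CPM. The other alkaline phosphatase genes, Alppl2, Akp3 and Alpi, were at 0 counts in all 6 libraries.

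**Figure D5:**
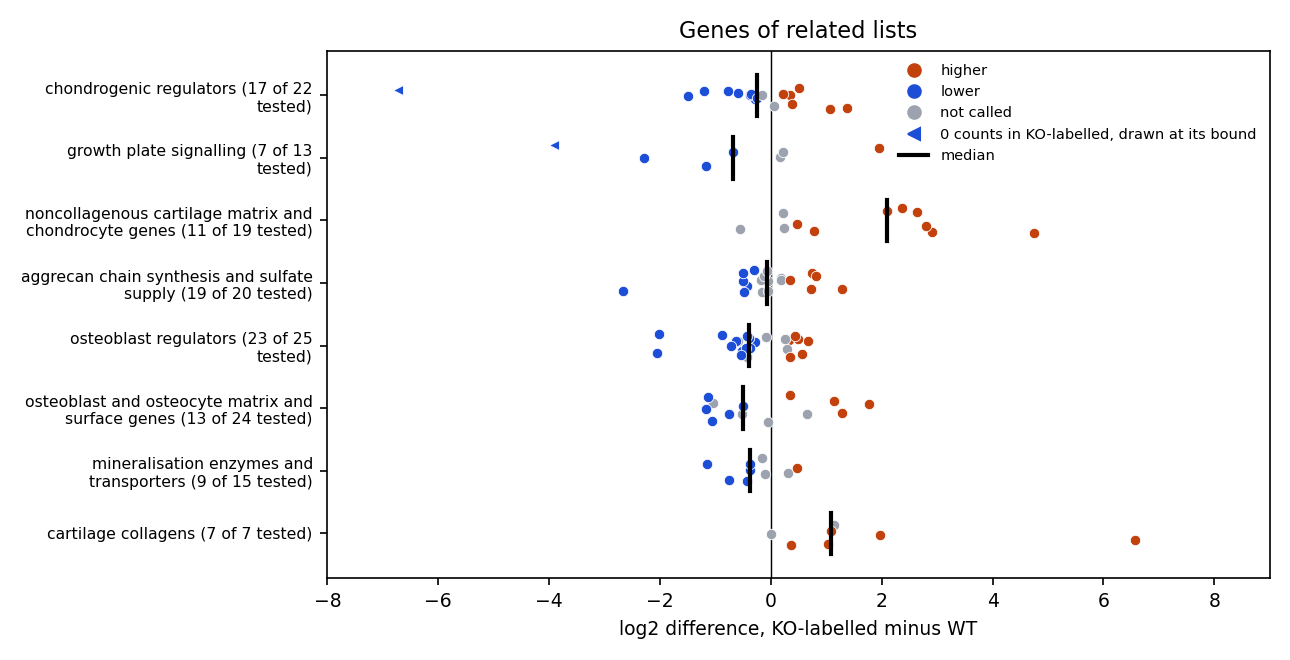
Log2 differences, KO-labelled minus WT, of each tested gene in 8 lists related to cartilage and bone, 1 row per list, with orange for higher, blue for lower, grey for not called, a black line for the list's median and a left-pointing triangle for a gene without counts in KO-labelled libraries, drawn at its bound. Noncollagenous cartilage genes and cartilage collagens lie mostly to the right, with medians of 2.09 and 1.09. The medians of the other 6 lists lie between -0.68 and -0.07. The 2.09 is the value of Epyc, which passed the filter only through the KO-labelled group. The -0.68, of growth plate signalling, depends on Nog, which passed only through the WT group.

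Markers of further cell types were low or moved in both directions. Of 7 epithelial markers, 1 passed the filter, Cdh1, which was higher, at 7.47 ± 1.47 against 2.22 ± 0.327 CPM, Cldn4 was at 0 counts, and the summed level was 6.16 to 9.17 CPM in KO-labelled and 2.16 to 2.63 CPM in WT libraries. Of 5 endothelial markers, 2 passed the filter, 1 lower and 1 not called, with a median log2 difference of 0.23. The lower one was Tek, an angiopoietin receptor that perivascular cells can also carry, at 21.9 ± 1.88 against 37.1 ± 2.41 CPM. The marker not called went the other way. Of 3 tendon markers, Scx and Mkx were lower and Tnmd, the highest of them, was higher, at 16.4 ± 1.01 against 13.7 ± 0.602 CPM. The part of these cell types in the differences above was not tested.

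Genes that overlap the members could have shared reads with them, since the strand setting of the counting is not given in the sources used here. Sox5os1 shares 1330 exonic bases with Sox5 and had at most 1 count per library. Runx2os1 shares 519 bases with Runx2 and had 41.4 to 55.4 counts in KO-labelled and 43.0 to 51.2 in WT libraries, against 1158 to 1498 and 2478 to 2784 for Runx2.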

How the data were processed

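The members and the gene lists were chosen with earlier results of these data known. PolyA RNA of 10T1/2 cells was sequenced in 3 WT and 3 KO-labelled libraries. Per the submitters' processing notes, the authors used cutadapt and RSEM with GRCm38, and they deposited expected counts for each gene. The aligner was not given in the sources used here. RSEM divides reads that match several genes, and 17.9% of values were not whole. Symbols, positions and merged exon lengths came from GENCODE M21, which matched 55230 of 55471 identifiers.

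Counts were rounded and filtered with filterByExpr (minimum count 10, or 0.248 CPM at the median library size, in 3 libraries; minimum total 15), which left 15454 genes. They were scaled by TMM and tested with edgeR 4.0.16 (quasi-likelihood F test, two-sided, R 4.3.3) with genotype as the only term and Benjamini-Hochberg adjustment over all genes tested. CPM uses TMM-scaled library sizes. Standard errors come from the F statistic. The script was tested on simulated data. Intervals of count ratios reflect counting error alone. Levels of different genes were compared per kilobase of merged exon.

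Of each related list, up to 4 called genes with the smallest adjusted p and at least 1 CPM in the higher group were named, with the highest gene that was not called; of each marker list, the highest marker and those at 0 counts; of neighbours within 500 kb of a called member, up to 3 called genes with the largest difference. Alternatives were other scalings, filters and tests (DESeq2 1.42.0, limma 3.58.1), counts not rounded, a replicate block and leaving out each library. Promoter windows came from RefSeq (GRCm38.p6) and were found for 8 of 10 members. A planned comparison of protein sequences was not made.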

Additional observations from a re-analysis of the deposited data

How the results depend on the processing

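Across 14 alternative fits, 6 to 7 members were called, 3 to 4 higher and 3 lower. The additional call was Sp7, called without a filter, without KO-labelled library 3 and without WT library 2 (adjusted p 0.00934 to 0.0456, edgeR). It was tested but not called without WT library 1 or 3. With a library left out, Sp7 passed the filter only through the KO-labelled group, so an increase was built into its being tested. The log2 differences stayed between 3.94 and 4.96 for Sox5, 4.81 and 5.19 for Sox6, 7.08 and 7.33 for Cytl1, -0.34 and -0.27 for Sox9, -0.54 and -0.45 for Runx1 and -0.79 and -0.66 for Runx2, each past the threshold in every fit (highest adjusted p 0.0368, for Sox9). Runx3 was not called in any of them (adjusted p 0.295 to 0.989), and its sign turned without KO-labelled library 3 (-0.0023) and without WT library 3 (-0.030), in a range of -0.03 to 0.12 over these fits. All genes called numbered 4353 to 6652. With the chromosome's median subtracted, Sox9 stood at -0.22, Runx2 at -1.002 and Runx3 at -0.08, a further turn of its sign. Without division by length, the change in SoxD share was 73.8 percentage points for Sox6 and -78.0 for Sox13, against 86.8 and -92.4 with it. Same-numbered libraries did not deviate together (correlations 0.0224, -0.0811 and -0.0343 across genes); with a replicate block, 4994 genes and 6 members were called and no member's call changed. Depth limits Acan, Alpl and Sp7, which had 28 counts or fewer over a group.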
